A study of Mus musculus with 6 samples.

Results

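The 6 acyl-CoA thioesterase paralogs of the Acot1 locus, Acot1, Acot2, Acot3, Acot4, Acot5 and Acot6, were measured in whole kidneys of Pkd1 miR transgenic mice given metformin or saline. Members were taken by name: a transcript cluster (the array's unit for one transcribed locus) belongs here if its only gene symbol in the platform annotation is one of the 6. This gave 6 clusters of the 65956 on the array, 1 per gene. The locus was singled out because Acot2 was already known to differ between the groups on these arrays, so differences between metformin and saline for the paralogs are descriptions and carry no test.

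The metformin group held 3 female mice that received metformin, a biguanide drug for diabetes, intraperitoneally at 150 mg per kg per day, and the saline group held 3 female mice that received saline injections. Treatment began at postnatal day 35 and lasted to postnatal day 63, when the kidneys were taken. Every mouse of both groups carried the Pkd1 miR transgene, built to model polycystic kidney disease, and no mouse without it was analysed here. Which promoter drives the transgene is not stated in the labels. Each sample was hybridised to 1 array and the labels call the samples biological replicates.

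Acyl-CoA thioesterases split fatty acyl-CoA into a free fatty acid and coenzyme A, and so set how much activated fatty acid and how much free coenzyme A a compartment holds. The mouse paralogs of this locus share a fold and differ in where they work: Acot1 in the cytosol, Acot2 in the mitochondrial matrix, and Acot3, Acot4, Acot5 and Acot6 in peroxisomes. Several of them are known targets of PPARA, the nuclear receptor that senses fatty acids, and the proximal tubule of the kidney is a tissue that lives on fatty acid oxidation.

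The 6 clusters carry consecutive platform identifiers, which run from TC1200000797.mm.1 for Acot2 over Acot1, Acot4, Acot3 and Acot5 to TC1200000802.mm.1 for Acot6. The RefSeq table of assembly GRCm38.p6 lists the genes in the same order on chromosome 12. RefSeq promoter windows were matched for 5 of the 6 genes, all on the plus strand. The 250 bases before the annotated start are shown for the 3 genes at the Acot2 end of the locus. Lower values do not mark out these 3, since all 6 paralogs had a lower mean with metformin. A link between upstream sequence and the values was not tested. Capitals mark a CCAAT box (CCAAT or its reverse complement ATTGG) and a PPAR half-site (AGGTCA or its reverse complement TGACCT). The windows are chr12:83987611-83987860 for Acot2, chr12:84009252-84009501 for Acot1 and chr12:84038129-84038378 for Acot4.

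Acot2: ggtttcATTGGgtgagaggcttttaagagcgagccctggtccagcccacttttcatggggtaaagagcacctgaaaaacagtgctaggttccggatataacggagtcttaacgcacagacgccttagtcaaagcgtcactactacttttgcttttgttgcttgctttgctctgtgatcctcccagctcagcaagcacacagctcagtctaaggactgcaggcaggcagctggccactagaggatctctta

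Acot1: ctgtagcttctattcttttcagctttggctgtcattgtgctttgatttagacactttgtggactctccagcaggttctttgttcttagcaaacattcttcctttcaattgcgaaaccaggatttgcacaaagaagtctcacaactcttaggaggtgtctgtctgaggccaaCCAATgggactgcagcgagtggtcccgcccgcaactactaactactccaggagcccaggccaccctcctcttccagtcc

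Acot4: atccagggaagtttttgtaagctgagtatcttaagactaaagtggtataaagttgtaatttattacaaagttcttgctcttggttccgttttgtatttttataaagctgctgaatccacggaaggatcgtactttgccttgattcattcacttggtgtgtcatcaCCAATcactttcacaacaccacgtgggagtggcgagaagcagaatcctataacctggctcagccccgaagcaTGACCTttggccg

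A CCAAT box on either strand stood in 5 of the 5 windows matched, against 34.5% of 27025 RefSeq promoter windows of the same length. It began 244 bases before the start of Acot2, 79 bases before that of Acot1 and 85 bases before that of Acot4. A PPAR half-site stood in 2 of the 5 windows, those of Acot4 and Acot5, against 13.8% of all windows. The Acot4 half-site began 13 bases before the start and is part of the only match among the 5 windows to the paired element AGGTCANAGGTCA on either strand with at most 2 letters different, which 3.18% of all windows hold. The windows of Acot2, Acot1 and Acot3 hold no half-site of these letters. Acot3 and Acot5 each have 2 annotated starts, and only the window of the first listed was searched. A TATA box (TATAAA or its reverse complement TTTATA) and an E-box (CACGTG, its own reverse complement) were in the Acot4 window alone among the 5, against 13% and 6.05% of all windows. The motifs were settled after the member sequences had been read. These are matches of letters and say nothing of binding.

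All 6 paralogs had a lower mean with metformin, by 1.34-fold for Acot5 up to 3.07-fold for Acot2. In 5 of the 6 the metformin arrays all lay below the saline arrays, and Acot3 was the exception. Of the 22087 genes tested on these arrays, 19.4% had groups that did not overlap with metformin lower (37.3% in either direction), shares from which nothing is read here because the locus was chosen on this contrast. Values are log2 expression per cluster, and levels of different paralogs are not set against each other because each has its own probes. How far the probes of a paralog pick up its near relatives was not tested. In whole kidney, fewer cells of a type and less RNA per cell cannot be told apart.

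**Figure D1:**
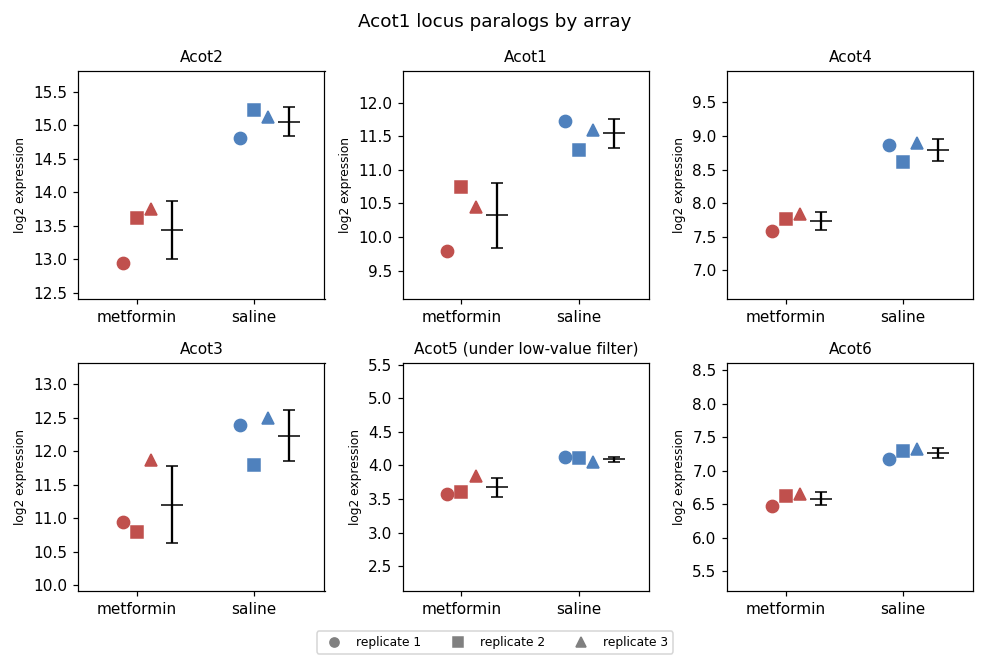
Log2 expression of each paralog on the 3 metformin arrays (left, red) and the 3 saline arrays (right, blue), with the mean and SD of each group as a bar beside the points; marker shapes give the replicate number and every panel spans the same number of log2 units. The groups are apart in every panel but that of Acot3, and Acot2 shows the widest separation.

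Acot2, the mitochondrial enzyme, had 12.95, 13.61 and 13.75 log2 units in metformin kidneys 1 to 3, against 14.81, 15.23 and 15.12 in saline kidneys 1 to 3. Its group means were 13.44 ± 0.42 with metformin and 15.05 ± 0.22 with saline (SD, n = 3 each). The difference, metformin minus saline, was -1.62 ± 0.22 log2 units (SE of the limma fit), which put the metformin level at 32.6% of the saline level. The highest metformin array lay 1.06 log2 units under the lowest saline array, the widest gap of the 6 paralogs. By size of fall it ranked 46th among the genes tested.

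Acot1, the cytosolic enzyme and the next gene along the chromosome, had 9.79, 10.74 and 10.44 log2 units in metformin kidneys 1 to 3, against 11.73, 11.3 and 11.6 in saline kidneys. The means were 10.32 ± 0.48 with metformin and 11.54 ± 0.22 with saline (SD, n = 3 each), a difference of -1.22 ± 0.24 (SE). Its metformin values spread more widely than its saline values, and metformin kidney 1 was the low one, as it was for Acot2. A gap of 0.56 log2 units still separated the groups.

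Among the peroxisomal enzymes, Acot4, which acts on succinyl-CoA and on the CoA esters of dicarboxylic acids, had 7.59, 7.77 and 7.84 log2 units in metformin kidneys and 8.87, 8.61 and 8.9 in saline kidneys. Its difference was -1.06 ± 0.12 (SE), from means of 7.74 ± 0.13 with metformin and 8.79 ± 0.16 with saline (SD, n = 3 each). Its arrays lay close together within each group, so that its standard error was about that of Acot6 and under those of Acot2, Acot1 and Acot3.

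Acot3, a peroxisomal thioesterase for long-chain acyl-CoA, had 10.94, 10.8 and 11.86 log2 units in metformin kidneys and 12.39, 11.8 and 12.5 in saline kidneys. The groups overlapped, since metformin kidney 3 lay 0.05 log2 units above saline kidney 2. The means were 11.2 ± 0.57 with metformin and 12.23 ± 0.38 with saline (SD, n = 3 each). The difference of -1.03 ± 0.30 (SE) was close in size to that of Acot4 and had the largest error of the 6.

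Acot6, which acts on CoA esters of branched fatty acids such as phytanic acid, had 6.47, 6.63 and 6.65 log2 units in metformin kidneys and 7.18, 7.29 and 7.33 in saline kidneys. Its difference was -0.68 ± 0.10 (SE), from means of 6.58 ± 0.10 with metformin and 7.26 ± 0.08 with saline (SD, n = 3 each). Its difference was smaller than those of Acot2, Acot1, Acot4 and Acot3 and larger than that of Acot5, and the spread within groups was at most 0.10 log2 units.

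Acot5, a peroxisomal thioesterase for medium-chain acyl-CoA, had 3.58, 3.6 and 3.84 log2 units in metformin kidneys and 4.12, 4.11 and 4.05 in saline kidneys. Its mean over the 6 arrays was 3.88, under the level of 4.03 under which the lowest 33.3% of clusters were left out, so it is the member that did not pass the low-value filter. Its difference was -0.42 ± 0.10 (SE, from the fit without that filter). The groups were apart by 0.22 log2 units, the narrowest gap among the paralogs whose groups did not overlap.

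The spread within groups was not the same for all paralogs. Metformin kidney 1 gave the lowest metformin value for 5 of the 6, the exception being Acot3, where it was metformin kidney 2. Metformin kidney 3 gave the highest metformin value for 5 of the 6, the exception being Acot1. Among the saline kidneys no array led throughout: saline kidney 2 was lowest for Acot1, Acot4 and Acot3, and saline kidney 3 was highest for Acot4, Acot3 and Acot6.

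Correlations between paralogs over the 6 arrays were computed for the 10 pairs of the 5 paralogs that passed the low-value filter. Pearson's r was above 0 in all 10 pairs and ranged from 0.78 for Acot1 with Acot3 to 0.99 for Acot2 with Acot6, with a median of 0.92. Spearman's rho ranged from 0.60 to 0.94. The exact two-sided permutation test over the 720 pairings of 6 arrays gave p = 0.00417 to 0.0819 for Pearson's r, adjusted over the 10 pairs 0.0347 to 0.0819 with 7 of 10 under 0.05. For Spearman's rho the exact permutation p adjusted over the pairs was 0.0833 to 0.242, with 0 of 10 under 0.05 (4 of 10 before adjustment). Because the arrays fall into the metformin and the saline group, these pooled values contain the difference between groups that singled out the locus, and they are not read as a relation of their own. Without the 2 arrays farthest from the median of the first-named paralog, r ranged from 0.49 to 1.0.

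Deviations of each array from its group mean leave out the difference between groups. Their correlation was above 0 in all 10 pairs as well, with a median of 0.46 and a range of 0.25 for Acot2 with Acot3 to 0.94 for Acot2 with Acot6. Acot1 with Acot4 and Acot4 with Acot3 each had 0.76. Shuffling the arrays within groups, an exact permutation test with 36 arrangements whose smallest possible p is 0.0278, gave p = 0.0833 to 0.778, with 0 of 10 pairs under 0.05 and adjusted p of 0.463 to 0.778. Acot2 and Acot6, at opposite ends of the locus, thus had the highest r by both measures, but within groups no pair passed the test at this number of arrays. For Acot5, given as values only, r with the other paralogs ranged from 0.87 to 0.95 over the 6 arrays and from 0.24 to 0.72 for the deviations.

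**Figure D2:**
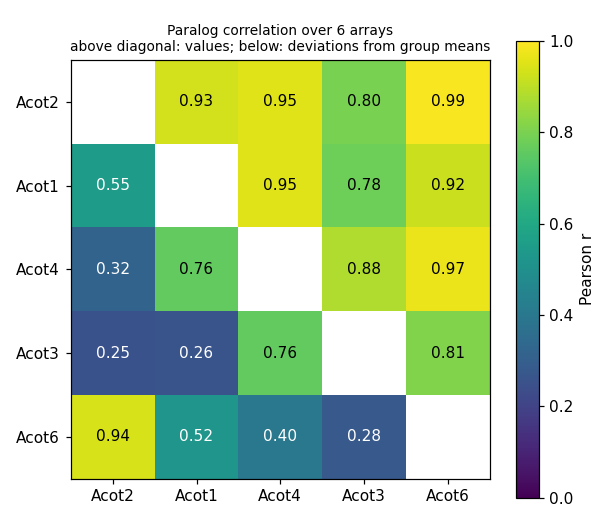
Pearson r between the 5 paralogs that passed the low-value filter, over 6 arrays. Cells above the diagonal use the log2 values and range from 0.78 to 0.99; cells below it use deviations from the group means and range from 0.25 to 0.94, with Acot2 and Acot6 highest in both.

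For each paralog, genes outside the locus had a higher r than any paralog did. Over the 6 arrays the genes most like Acot2 by Pearson's r were Dhdh (0.998), Ids (0.995) and Siae (0.994), and Acot6 ranked 16th and Acot4 493rd. The genes most like Acot1 were Hdhd2 (0.999), Cyc1 (0.999) and Tesk2 (0.998), and Acot4 was the closest paralog at rank 744. Acot4 was followed most closely by Shpk (0.999), Ndufb9 (0.999) and Prps2 (0.998). Acot3 was followed by Gm6098 (0.996), Nr1d2 (0.995) and Mreg (0.995), and Acot6 by Mmab (1.0), Gm6684 (0.999) and Cog6 (0.998). By deviations from the group means the genes most like each were Pdxk, Gm8312 and Gm15319 for Acot2, Atad3a, Slc26a11 and Abca8a for Acot1, and Gm13266, Ugt3a2 and Gm10136 for Acot4. For Acot3 they were Gm12804, Gm16456 and Vmn1r-ps77, and for Acot6 Tas2r108, Ak3l2-ps and Ogdh. By deviations Acot6 ranked 116th for Acot2, and Acot1, Acot4 and Acot3 ranked 2853rd, 5344th and 6064th. The closest paralog was Acot4 for Acot1 (rank 1432) and for Acot3 (rank 1777). It was Acot1 for Acot4 (rank 2207) and Acot2 for Acot6 (rank 222). With 6 arrays such values are common and serve as a description.

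The genes around the locus were compared next. Of the 8 named protein-coding genes on each side in the RefSeq order, 14 were tested, and their median difference was -0.01 log2 units with a range of -1.11 to 0.53, against a median of 0.02 over all genes tested. With limma, 1 of the 14 fell and 1 rose at an adjusted p under 0.05, where over all genes 9.08% were lower and 6.71% higher. Ptgr2, a prostaglandin reductase, had 10.1 ± 0.27 with metformin and 11.22 ± 0.29 with saline (SD, n = 3 each; limma adjusted p = 0.0131). Rbm25, a splicing regulator, had 11.79 ± 0.18 with metformin and 11.26 ± 0.05 with saline (SD, n = 3 each; limma adjusted p = 0.0249). The genes bordering the paralogs on either side, Riox1 and Dnal1, had differences of -0.22 ± 0.19 and 0.03 ± 0.09 (SE; limma adjusted p = 0.464 and 0.856). When samples were blocked by replicate number, 3 neighbours were lower, since Dcaf4 (-0.38, limma adjusted p = 0.0554, with the block 0.0426) and the nucleotidase Entpd5 (-0.78, limma adjusted p = 0.0603, with the block 0.0323) passed too. The call of Ptgr2 ended without saline kidney 1, which left 0 lower, 2 were lower without saline kidney 2 or saline kidney 3, and that of Rbm25 ended (0 higher) without metformin kidney 1, metformin kidney 2, saline kidney 1 or saline kidney 3.

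**Figure D3:**
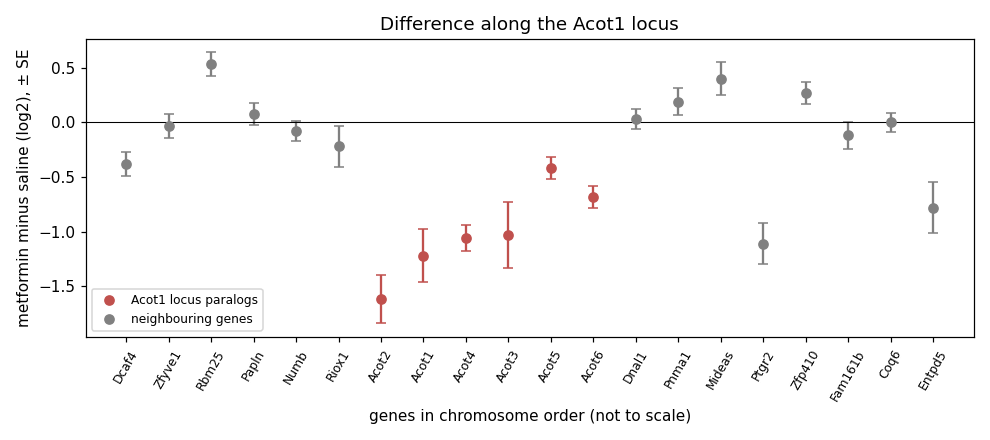
Metformin minus saline in log2 units with the SE of the limma fit, for the Acot1 locus paralogs (red) and the tested neighbouring genes (grey), in chromosome order and not to scale. The 6 paralogs lie at -0.42 to -1.62; the neighbours spread from -1.11 to 0.53 around a median of -0.01, with Ptgr2 lowest.

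Genes of acyl-CoA metabolism outside the locus were tested in 8 lists with limma over all genes. Of 143 different genes, 57 fell and 0 rose at an adjusted p under 0.05 (39.9% lower, where over all genes 9.08% were lower). The 57 became 12 without saline kidney 1, 24 without metformin kidney 2, 32 without metformin kidney 1 and 33 without saline kidney 3. These fits have fewer arrays, and their counts over all genes are not given here. A call could end while the difference hardly moved, as for Acot12 without saline kidney 1 (-0.93, against -0.94 with all arrays). Of the 57, 10 kept their call whichever array was left out, and these lead the description of each list: Acss1, Acss3, Vnn1, Aqp7, Slc25a20, Acad11, Eci1, Acox2, Amacr and Decr2. Some genes stand in several lists.

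Of 17 other acyl-CoA thioesterases and relatives, 6 fell, 0 rose and 11 did not pass, with a median of -0.50. Acot8, a peroxisomal thioesterase of another fold, had 6.76, 7.1 and 6.96 log2 units with metformin and 7.59, 7.49 and 7.53 with saline, a fall of 1.51-fold (limma adjusted p = 0.0167). Acot12, a cytosolic acetyl-CoA hydrolase, fell 1.91-fold (limma adjusted p = 0.0206). Of the closest relatives of the locus in fold, which join acyl groups to amino acids, Baat fell 1.75-fold, Acnat1 1.68-fold and Acnat2 1.74-fold, at limma adjusted p of 0.0177 to 0.0447. The lysosomal Ppt1, which removes palmitate from proteins, fell 1.69-fold (limma adjusted p = 0.0153). Acot7, a cytosolic thioesterase, had a difference of -1.23 ± 0.37 (SE; limma adjusted p = 0.0617, and 0.0443 with the replicate block), and the mitochondrial Acot9 one of 0.45 ± 0.17 (SE; limma adjusted p = 0.114). The count of 6 lower was 1 without saline kidney 1 or metformin kidney 2 and 4 when metformin kidney 1, metformin kidney 3 or saline kidney 3 was left out.

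Of 18 acyl-CoA synthetases, which run the opposite reaction, 7 fell, 0 rose and 11 did not pass, with a median of -0.33. Acss1, the mitochondrial acetyl-CoA synthetase, fell 2.5-fold (limma adjusted p = 0.00735), to 13.65 ± 0.32 with metformin against 14.97 ± 0.04 with saline (SD, n = 3 each). Acss3 fell 1.83-fold, and the medium-chain synthetases Acsm5, Acsm1 and Acsm2 fell 2.18-fold, 2.29-fold and 2.02-fold. The other 2 were Acss2, the cytosolic acetyl-CoA synthetase, at 1.69-fold and Acsf2 at 1.51-fold. The count of 7 was 2 without saline kidney 1, 3 without metformin kidney 2, and 4 without metformin kidney 1 or saline kidney 3.

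Of 23 genes of mitochondrial fatty acid oxidation, 15 fell, 0 rose and 8 did not pass, with a median of -0.62. Slc25a20, the carrier that brings acylcarnitines into the matrix where Acot2 works, had 11.07 ± 0.35 with metformin and 12.38 ± 0.23 with saline (SD, n = 3 each; 2.48-fold lower, limma adjusted p = 0.0097). Acad11, an acyl-CoA dehydrogenase, fell 2.31-fold and Eci1, an enoyl-CoA isomerase, 1.87-fold. Hadhb, a subunit of the trifunctional protein, fell 2.15-fold and the dienoyl-CoA reductase Decr1 1.75-fold. With the replicate block the calls of Cpt2 (limma adjusted p = 0.045, with the block 0.0519) and Acaa2 (0.0441, with the block 0.0615) ended. The count of 15 was 3 without saline kidney 1, 6 without saline kidney 3, 7 without metformin kidney 2 and 9 without metformin kidney 1.

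Of 27 peroxisomal genes of fatty acid oxidation, the compartment of Acot3, Acot4, Acot5 and Acot6, 12 fell, 0 rose and 15 did not pass, with a median of -0.58. Amacr, which racemises branched acyl-CoA, fell 2.79-fold, to 9.38 ± 0.30 with metformin against 10.86 ± 0.34 with saline (SD, n = 3 each; limma adjusted p = 0.00865). Decr2, the peroxisomal dienoyl-CoA reductase, fell 2.65-fold and Acox2, the oxidase for branched chains and bile acid precursors, 2.10-fold. Hacl1 and Phyh, which break down phytanic acid, fell 1.9-fold and 1.5-fold. The count of 12 was 4 without saline kidney 1, 5 without metformin kidney 1 or metformin kidney 2, and 7 without saline kidney 3.

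Of 32 PPARA targets outside the locus, 11 fell, 0 rose and 21 did not pass, with a median of -0.57. Besides Slc25a20, the clearest were Aqp7, a glycerol channel, at 2.21-fold lower (limma adjusted p = 0.00967) and Vnn1, the pantetheinase, at 2.38-fold lower (limma adjusted p = 0.0106). Cd36, a fatty acid transporter, fell 2.44-fold, Gpd1 2.79-fold, Cpt1b 1.94-fold and the fatty acid hydroxylase Cyp4a14 1.67-fold. Ppara itself had 9.3, 10.27 and 10.12 log2 units with metformin and 10.95, 10.78 and 11.11 with saline, a fall of 2.06-fold (limma adjusted p = 0.0312). Metformin kidney 1 was the lowest array for Ppara, as for 5 of the 6 paralogs. This is not particular to Ppara and the paralogs. Metformin kidney 1 was also the lowest array for Slc25a20, Aqp7, Vnn1, Cd36, Gpd1, Cpt1b and Cyp4a14. The same held for the mean of the proximal tubule, adipocyte and distal tubule markers described below, but not for that of the podocyte markers. The call of Ppara ended without metformin kidney 3, saline kidney 1 or saline kidney 3. The count of 11 was 3 without saline kidney 1, 5 without metformin kidney 2 and 7 without metformin kidney 1.

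Of 12 genes that make, use or transport succinyl-CoA or dicarboxylates, 6 fell, 0 rose and 6 did not pass, with a median of -0.66. The substrates of Acot4 are succinyl-CoA and the CoA esters of dicarboxylic acids, not the free acids. Suclg2 and Sucla2, subunits of succinyl-CoA synthetase, fell 1.58-fold and 1.56-fold. Gcdh, which oxidises glutaryl-CoA, fell 1.89-fold, Sugct, which moves coenzyme A onto glutarate, 1.99-fold and the dicarboxylate transporter Slc13a2 2.16-fold. The limma adjusted p of these 5 ran from 0.0204 to 0.0444. The count of 6 was 0 without saline kidney 1, 2 without metformin kidney 1 or saline kidney 3, 3 without metformin kidney 2 and 4 without metformin kidney 3.

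**Figure D4:**
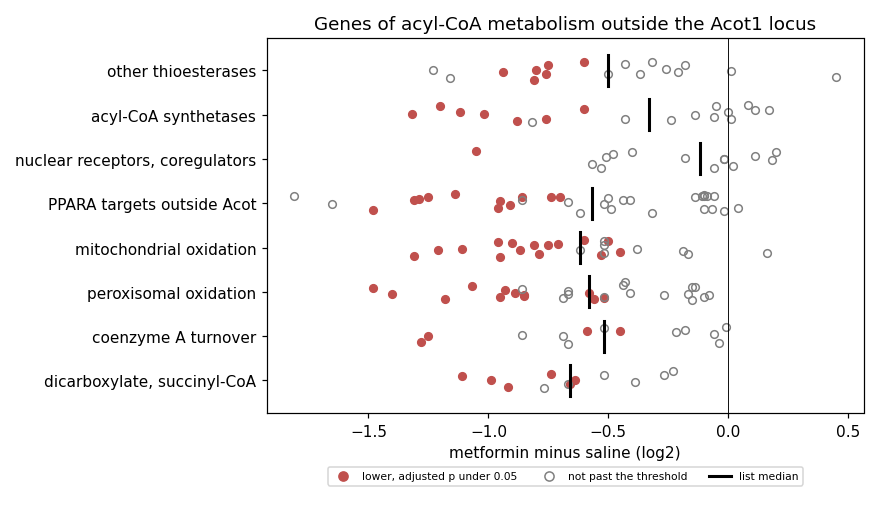
Metformin minus saline in log2 units for each tested gene of the 8 lists outside the Acot1 locus; filled points fell at a limma adjusted p under 0.05, open points did not pass and the black bar is the list median. No point right of 0 is filled, and the list of nuclear receptors and coregulators has the median nearest 0, at -0.12.

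Markers of 5 kidney and fat cell types were set beside the paralogs. Over all genes 9.08% were lower and 6.71% higher. Lower were 30% of the proximal tubule list, 36.4% of the white adipocyte list and 28.6% of the brown adipocyte list. Whether these shares exceed that over all genes was not tested. Of 20 proximal tubule markers, all tested, 6 fell, 0 rose and 14 did not pass (median -0.76), and their mean level on an array was 14 to 14.71 log2 units with metformin and 14.9 to 15.4 with saline. As mean deviation from each gene's own mean, they stood at -0.77, -0.26 and -0.06 on metformin arrays 1 to 3 and at 0.32, 0.13 and 0.63 on saline arrays 1 to 3. The 5 paralogs past the filter stood at -0.87, -0.51 and -0.31 on metformin arrays and at 0.58, 0.43 and 0.67 on saline arrays. Both measures thus put the 6 arrays in the same order, and the part of tubule cell content in the paralogs' values was not tested. Without saline kidney 1 or saline kidney 3 the count of 6 was 0, without metformin kidney 1 it was 1, without metformin kidney 2 it was 2, with the replicate block it was 13 and with quantile normalization 16. Of 7 markers of the loop and distal tubule and 4 of podocytes none fell or rose with limma. At an unadjusted limma p under 0.05 there were 2 of 7 and 0 of 4. Lists this short cannot tell 0 calls from the 9.08% lower over all genes, so no contrast with the proximal tubule is drawn. Of the 7, 2 fell with the replicate block, with quantile normalization or without saline kidney 2, and 1 with median centring.

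Adipocyte markers passed in part, where over all genes 9.08% were lower. Of 11 white adipocyte markers tested 4 fell, 0 rose and 7 did not pass (median -0.92), with mean levels of 6.71 to 6.97 log2 units on metformin arrays and 7.53 to 8.9 on saline arrays. Of 7 brown adipocyte markers tested 2 fell, 0 rose and 5 did not pass (median -0.96), with mean levels of 7.96 to 8.28 on metformin arrays and 8.65 to 9.77 on saline arrays. The 2 that fell were Cox7a1 and Cpt1b, which had 9.36 ± 0.23 and 8.37 ± 0.47 with metformin (SD, n = 3 each). Cpt1b also stands in the lists of PPARA targets and mitochondrial oxidation. The mean levels include Ppargc1a, at 14.6 ± 0.20 with metformin (SD, n = 3). Defining markers lay near the low-value filter with metformin, with Ucp1 at 3.87 ± 0.11 and Adipoq at 4.14 ± 0.10 (SD, n = 3 each), against 7.48 ± 2.81 and 5.46 ± 0.83 with saline (SD, n = 3 each). Adipoq passed the test (limma adjusted p = 0.0472) and Ucp1 did not (limma adjusted p = 0.0805). Car3, a white adipocyte marker, had 5.36 ± 0.36 with metformin and 10.64 ± 2.32 with saline (SD, n = 3 each). It passed too (limma adjusted p = 0.0174). The part of adipocyte content in the paralogs' values was not tested. Saline kidney 3 had the lowest mean adipocyte marker levels of the saline group, for the white and the brown list. Single markers differed. Saline kidney 3 was the highest saline array for Cd36 (12.73), Slc2a4 (7.89) and Fabp3 (12.43). Saline kidney 2 was the lowest for Cox7a1 (9.9), Cpt1b (9.13) and Ppargc1a (14.38). For the other adipocyte markers tested saline kidney 3 was the lowest saline array. On saline kidney 3 the 11 white adipocyte markers still had a mean deviation of -0.05. Those of metformin arrays 1 to 3 were lower, at -0.87, -0.66 and -0.61. Not every marker did so. Plin1 (4.46 log2 units) and Fabp4 (10.27) lay within their metformin ranges on saline kidney 3, and Pparg (5.61) lay below its own. The other white adipocyte markers tested lay above all their metformin values on this array. Saline kidney 3 also had the highest mean proximal tubule marker level of all arrays, at 15.4 log2 units. Against saline kidney 3 alone, a single array, the metformin means differed by -1.68 for Acot2, -1.27 for Acot1, -1.16 for Acot4, -1.31 for Acot3, -0.38 for Acot5 and -0.75 for Acot6. The count of 4 white adipocyte markers was 0 without saline kidney 1, 2 without metformin kidney 1 or metformin kidney 2, 11 without saline kidney 3 and 7 with quantile normalization. That of 2 brown adipocyte markers was 0 without saline kidney 1 or metformin kidney 2 and 1 without metformin kidney 1 or metformin kidney 3.

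**Figure D5:**
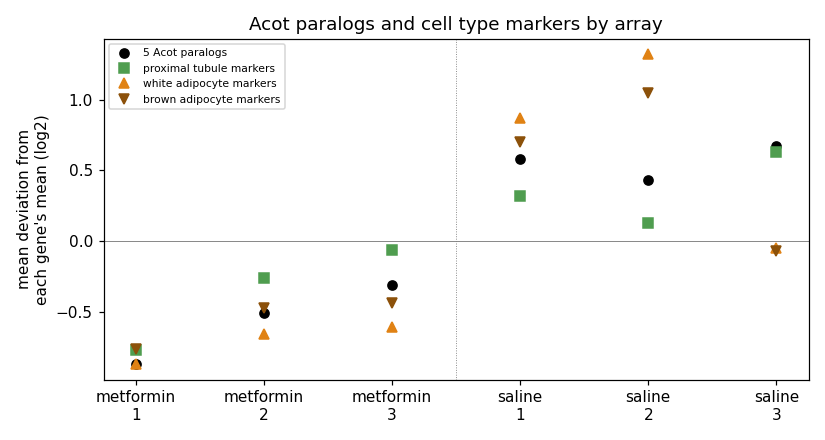
Deviation of each gene from its 6-array mean, averaged over the genes of a set, in log2 units, for the 5 paralogs that passed the filter and for 3 marker lists, with metformin arrays left of the dotted line and saline arrays right of it. The paralogs are lowest at -0.87 on metformin array 1 and highest at 0.67 on saline array 3, where the proximal tubule markers also peak and the adipocyte markers are lowest among saline arrays.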

How the data were processed

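Each kidney was frozen at harvest, its total RNA was taken up with TRIzol and biotin labelling used the GeneChip WT PLUS kit, as the labels' protocols state. The authors deposited log2 expression values, 1 per array for every transcript cluster. The submitters' processing notes name RMA and Transcriptome Analysis Console 4.0; no further setting and no genome build was found. Values run from 1.94 to 19.9 and array medians from 4.67 to 4.86. The top values exceed the log2 range of a 16-bit scanner, so how the scale was made is unknown and folds hold on the deposited scale.

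Symbols were updated by Entrez number to RefSeq GRCm38.p6 (22818 of 30604 clusters with 1 symbol matched). No gene was taken from the 33206 clusters not listed in the platform annotation or the 2146 with several symbols. Both kinds still counted in the level of the low-value filter, in median centring and in quantile normalization. Clusters were ranked by their mean on the 6 arrays and the bottom 33.3% were dropped, and the cluster with the highest mean stood for a gene. The 22087 genes were fitted with limma 3.58.1 in R 4.3.3 (lmFit, eBayes), metformin against saline, two-sided, with Benjamini-Hochberg adjustment over all genes and a threshold of 0.05; the test was checked on simulated data. With arrays, the number of samples, 3 a group, limits the precision.

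The paralogs, lists and rules were chosen with earlier results of these data known. Genes named are the paralogs, up to 4 members of a list with the smallest p and any past the threshold, the 4 tested neighbours with the smallest p, and the 3 genes most like each paralog by either correlation. Neighbours were limited to protein-coding genes with a proper name after the files had been seen. Riox1 and Dnal1 (nearest to the locus), Acot9, Ucp1, Adipoq, Car3 and Cox7a1 were named after their values were seen. Across genes, same-numbered samples had correlations of 0.118, 0.145 and 0.541 between their departures from the group mean, which the rule used here takes as a pairing; saline 2 with metformin 1 reached 0.299, and the labels do not say what a number marks. The replicate number was therefore an alternative block. Other alternatives were median centring, quantile normalization, leaving out each array, no filter, the mean over clusters, and trend with robust options. Promoter windows come from RefSeq, GRCm38.p6.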

Additional observations from a re-analysis of the deposited data

How the results depend on the processing

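The differences of the 6 paralogs stayed below 0 under every alternative run. Leaving out each array in turn gave -1.77 to -1.37 for Acot2, -1.43 to -0.95 for Acot1, -1.15 to -0.99 for Acot4, -1.36 to -0.83 for Acot3, -0.50 to -0.37 for Acot5 and -0.73 to -0.63 for Acot6. Quantile normalization moved the median of all genes to -0.10 in place of 0.02 and gave -1.23 for Acot4 and -0.90 for Acot6; median centring gave -0.77 for Acot6. The replicate block leaves these differences as they are. For the 10 pairs the median r was 0.88 to 0.94 and the lowest r 0.68 to 0.86 with each array left out in turn; for deviations from the group means they were 0.46 and 0.25. The pathway genes that fell numbered 12 to 62 with each array left out, 52 to 80 under the other alternatives (66 with the replicate block), and those that rose 0 to 1, the 1 without metformin replicate 3. Neighbours that fell numbered 0 to 2 with each array left out and 3 each with median centring, quantile normalization and the replicate block; those that rose numbered 0 to 1, and 0 with the mean over clusters. With quantile normalization 17 PPARA targets, 7 genes of coenzyme A turnover and 2 nuclear receptors or coregulators fell, against 11, 4 and 1; the last count was also 2 with median centring and the replicate block. The cause of these changes was not tested. Among pathway and neighbouring genes the block ended the calls of Cpt2 and Acaa2 and, besides those given with their results, added calls for Fasn, Cyp4a31, Cpt1a, Cidec, Ehhadh, Scp2, Eci3 and Slc13a3. Acot5 lies near the low end of the signal.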

Other observations

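Of 13 genes of coenzyme A turnover, which handle the cofactor that thioesterases release, 4 fell and 0 rose (median -0.52): Vnn1, Slc25a16, a mitochondrial carrier linked to coenzyme A, at 2.43-fold lower (limma adjusted p = 0.0109), Ppcs, an enzyme of coenzyme A synthesis, at 1.51-fold lower (limma adjusted p = 0.0151) and pantothenate kinase Pank3 at 1.37-fold lower (limma adjusted p = 0.0206). Pank1 had a difference of -0.86 ± 0.28 (SE; limma adjusted p = 0.0733, and 0.0285 with the replicate block). The count of 4 was 1 without saline replicate 1 and 2 without metformin replicate 2. Of 14 nuclear receptors and coregulators of fatty acid genes, Ppara alone passed (median -0.12). That made 7.14% of the list lower, where over all genes 9.08% were lower. The count was 0 without saline replicate 1 or metformin replicate 3. Nr1h3, the liver X receptor alpha, had -0.40 ± 0.11 (SE; limma adjusted p = 0.0525, and 0.032 with the replicate block). The coactivator Ppargc1a had 14.6 ± 0.20 log2 units with metformin and 14.49 ± 0.10 with saline (SD, n = 3 each; limma adjusted p = 0.584); it was named after its values were seen.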
